A study of Homo sapiens with 6 samples.

Results

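MYC is the proto-oncogene transcription factor that drives growth and proliferation genes, and PVT1 is the long non-coding RNA gene that follows it on chromosome 8. Both lie in a long territory with few other protein-coding genes. The territory was taken as hg19 chromosome 8, 127.5 to 131 Mb, and its members are the H3K27ac peaks that overlap it. There were 217 such peaks among 87864 in all, 144 of the 56420 peaks of M2 macrophages and 73 of the 31444 peaks of THP-1 cells. By fixed bounds the territory was divided into an upstream desert (127.5 to 128.74 Mb), the MYC gene (128.74 to 128.76 Mb), PVT1 (128.8 to 129.12 Mb), a downstream desert (129.12 to 130.4 Mb) and a far blood enhancer stretch (130.4 to 131 Mb). The 40 kb between the MYC and PVT1 stretches were counted apart.

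H3K27ac is the acetylated form of histone H3 found at active promoters and enhancers, and it was measured by chromatin immunoprecipitation and sequencing. The series holds M2 macrophages, phagocytes in the alternatively activated state, and THP-1, a human monocytic leukaemia cell line that the labels call monocytes. The labels name neither the cells from which the M2 macrophages came nor the agents that polarised them, and give the same RPMI medium with foetal bovine serum for every library. Each cell type had 1 library for H3K27ac, 1 for the factor YY1 and 1 for input DNA. Of the 6, those for YY1 and input were not analysed here. Since a single H3K27ac library stands for each cell type, differences have no replicate check and no test was made. Intervals are exact 95% binomial intervals and cover counting error only. Cell type markers were not checked, because no gene positions of the hg19 build were used here, and MYC and PVT1 are placed only by the bounds above.

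MYC is controlled in different tissues by different enhancers scattered over the deserts on either side of it, many of them at a great distance. The upstream desert holds risk regions for several carcinomas. In mice a far downstream cluster of enhancers, the blood enhancer cluster, drives Myc in haematopoietic stem and progenitor cells and in myeloid leukaemia. The promoter of PVT1 has been shown, in breast cancer cells, to compete with that of MYC for enhancers inside PVT1. In the order of RefSeq genes on GRCh38.p14, POU5F1B is the last protein-coding gene before MYC, and GSDMC and CYRIB are the first after it.

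Acetylated sequence was spread differently over the stretches in the cell types. Covered sequence came to 181.6 kb in M2 macrophages, or 5.19% of the territory, and to 93.1 kb in THP-1 cells, or 2.66%. In M2 macrophages the downstream desert held 41.7% of the covered sequence and the far stretch 24.9%. In THP-1 cells the downstream desert held 8.11% and the far stretch 72.7%. The downstream desert makes up 36.6% and the far stretch 17.1% of the length of the territory. Both lists covered the same 49.8 kb, which is 27.4% of the M2 and 53.5% of the THP-1 covered sequence of the territory.

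**Figure D1:**
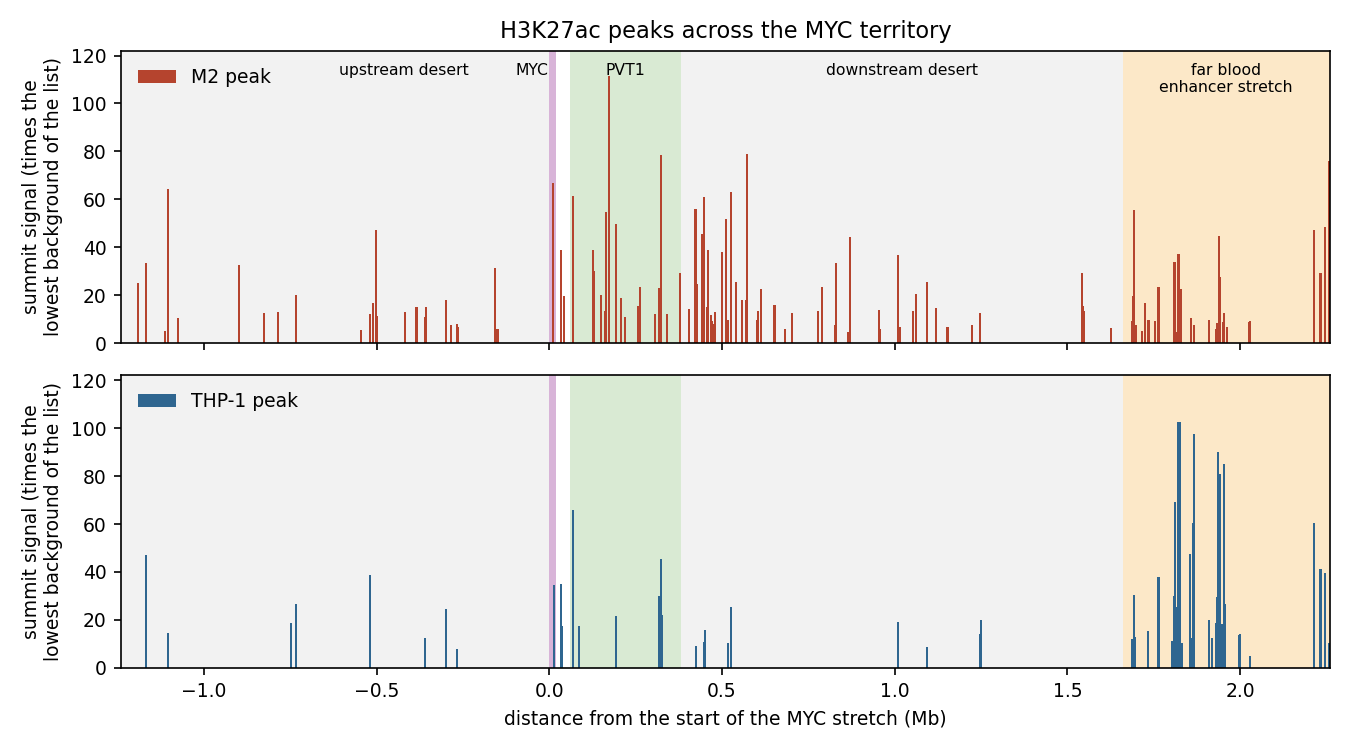
All H3K27ac peaks of the territory by distance from the start of the MYC stretch (Mb), M2 above and THP-1 below. Bar height is the signal over the summit, as a multiple of the lowest background of the list; bars are widened to stay visible, and 3 of the 217 peaks, whose signal could not be solved, are not drawn. Purple marks MYC, green PVT1, grey the deserts, orange the far stretch and white the sequence between MYC and PVT1. The tallest THP-1 bars stand in the far stretch, while tall M2 bars stand in every stretch. M2 bars reach 64.3 in the upstream desert, 66.9 at MYC, 111.7 in PVT1, 79.1 in the downstream desert and 76.0 in the far stretch.

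As a whole the territory held more peaks than the upper quartile of windows of its size in both lists, with a balance between the lists near that of the genome. The 144 M2 and 73 THP-1 peaks gave a ratio of 1.97 (interval 1.48 to 2.65), against 1.79 over the whole lists and 2.02 over the rest of chromosome 8. The ratio of covered sequence was 1.95, against 2.19 over the whole lists and 2.63 over the rest of the chromosome. Over 820 windows of the same 3.5 Mb length, M2 macrophages had a median of 59 peaks (quartiles 33 and 97) and THP-1 cells 32 (16 and 52), and the median covered ratio was 2.25 (1.76 and 2.87). The shares of peaks found in both lists were near those of the whole lists. In the M2 list 45 of 144 peaks overlapped a THP-1 peak by at least 1 bp, or 31.2% (interval 23.8 to 39.5). The other 99 are 68.8%, while 63% of all M2 peaks had no THP-1 counterpart. In the THP-1 list 52 of 73 peaks met an M2 peak, or 71.2% (59.4 to 81.2), and the 21 without are 28.8%, beside 24.7% over the whole THP-1 list. The whole-list shares of 37.0% for M2 and 75.3% for THP-1 peaks lie inside these intervals. The M2 list is the longer, and with each list held to the 31444 peaks of highest −log10 q the territory had 80 M2 and 73 THP-1 peaks, a ratio of 1.10.

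Single peaks of the territory were near those of their lists in median fold enrichment and wider in median width. M2 peaks had a median width of 890.5 bp, against 743 bp in the whole M2 list. THP-1 peaks had one of 710 bp, against 661 bp in the whole THP-1 list. The narrowest and widest were 307 and 7291 bp in M2 macrophages and 345 and 12163 bp in THP-1 cells. Fold enrichment is the authors' deposited ratio of a summit to the local background that their peak caller used. Its median was 5.65 among M2 peaks of the territory, against 5.42 in the whole M2 list. Among THP-1 peaks it was 3.90, against 3.67 in the whole THP-1 list. Fold enrichment is used here within a list only.

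Ratios by stretch spread far more widely than the total. The ratio of M2 to THP-1 covered sequence was 3.77 in the upstream desert, 10.5 in the MYC stretch, 2.47 between MYC and PVT1, 2.94 in PVT1, 10.0 in the downstream desert and 0.667 in the far stretch. Only the far stretch was covered further in THP-1 cells. In bins of 100 kb, M2 peaks covered more than THP-1 peaks in 27 of 35 bins and less in 4, and 5 bins held no M2 peak and 13 no THP-1 peak. All 4 bins in which THP-1 covered more lie in the far stretch.

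**Figure D2:**
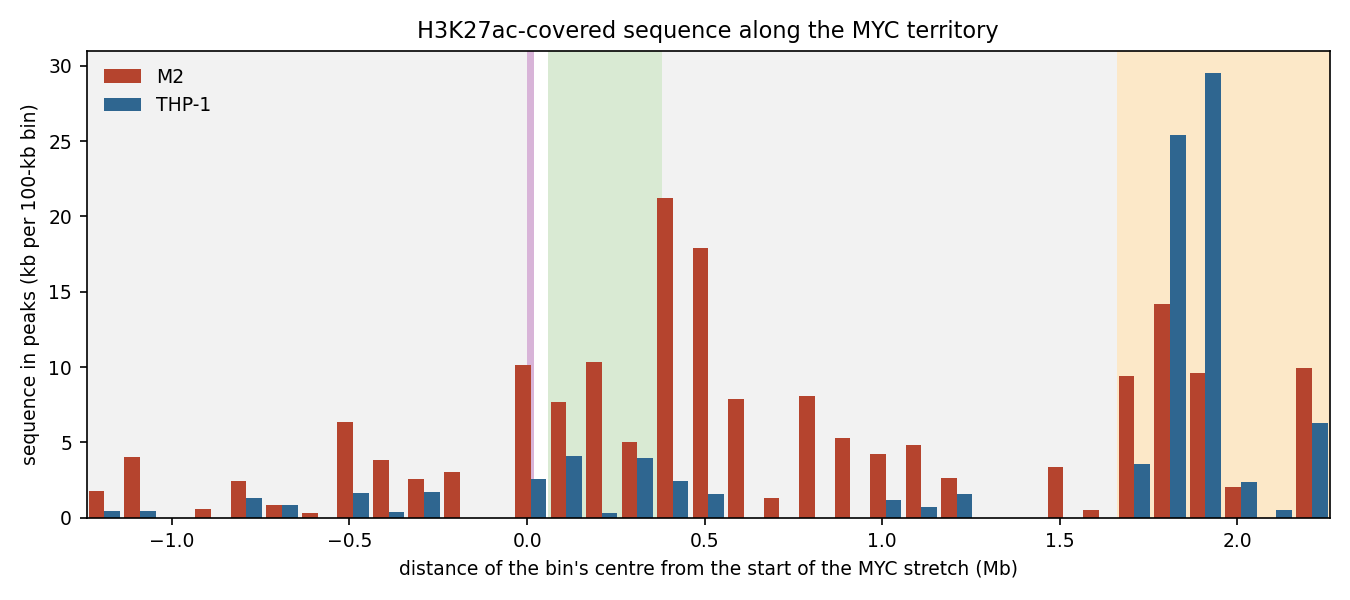
Sequence inside H3K27ac peaks (kb) in each of 35 bins of 100 kb, by the distance of the bin's centre from the start of the MYC stretch (Mb), with M2 in red left of THP-1 in blue. Purple marks MYC, green PVT1, grey the deserts and orange the far stretch; M2 bars peak at 21.2 and 17.9 kb just past PVT1, and THP-1 bars at 25.4 and 29.5 kb in the far stretch.

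Acetylation at the MYC gene was broad in M2 macrophages and narrow in THP-1 cells. M2 peaks filled 25% of the MYC stretch and the THP-1 peak 2.38%. The M2 list had 2 peaks there, at chr8:128746611-128748365 (1755 bp, 3.85-fold) and chr8:128748540-128751779 (3240 bp, 4.84-fold). The THP-1 list had 1, at chr8:128749232-128749706 (475 bp, 2.79-fold, −log10 q of 9.64), which lay wholly inside the wider M2 peak with its summit 97 bp away. The narrower M2 peak overlapped no THP-1 peak, and the nearest was 0.866 kb away. Under a −log10 q minimum of 10 both M2 peaks stay and MYC has no THP-1 peak.

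The strength of these peaks was also compared by the number of sequenced fragments over the summit. The deposited lists hold no reads, so this number was solved from the fold enrichment and p-value of each peak and is an inference. Dividing the scaled number by the lowest background of the list gives what is called signal here. The wider M2 peak had 154 fragments and the THP-1 peak 61, a signal of 66.9 and 34.6 and a ratio of 1.94 (interval 1.43 to 2.65). The local background at MYC was high in both lists, 13.4 times the lowest at that M2 peak and 12 times at the THP-1 peak, against medians of 2.38 and 5.04 over all M2 and THP-1 peaks. By fold enrichment, which divides by that background, these peaks ranked 34195 of 56420 in the M2 list and 22711 of 31444 in the THP-1 list.

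Between MYC and PVT1 both cell types were acetylated at the same place. The M2 peak at chr8:128770856-128774172 was 3317 bp wide and 21.6-fold enriched, rank 341 of the M2 list in fold. It spanned both THP-1 peaks of the interval, at chr8:128771309-128772683 (5.03-fold) and chr8:128772845-128773554 (5.41-fold). The summit held 89 fragments in the M2 list, and the THP-1 summits 62 and 31. These are signals of 38.7 in M2 and of 35.1 and 17.6 in THP-1. The local background was 1.30 times the lowest at the M2 summit, and 6.53 and 2.78 times at the THP-1 summits. A further M2 peak of the interval overlapped no THP-1 peak.

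PVT1 carried 18 M2 and 7 THP-1 peaks, a ratio of 2.57 (interval 1.02 to 7.28). In lists of equal length they were 11 and 7, a ratio of 1.57 whose interval holds 1 (0.556 to 4.78). They covered 24.7 kb in M2 macrophages and 8.41 kb in THP-1 cells. The site nearest MYC was acetylated in both cell types, with a signal ratio whose interval holds 1. There the M2 peak chr8:128806334-128808955 (2622 bp, 7.76-fold) and the THP-1 peak chr8:128806322-128808976 (2655 bp, 2.92-fold) had nearly the same bounds. The summits held 141 M2 and 116 THP-1 fragments, with a signal ratio of 0.932 (interval 0.724 to 1.20). The local background was 7.45 times the lowest in the M2 list and 22.1 times in the THP-1 list.

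In PVT1 14 of the 18 M2 peaks, or 77.8%, had no THP-1 counterpart, beside 63% in the whole M2 list. The shared share, 22.2% (interval 6.41 to 47.6), has an interval that holds the whole-list 37.0%. It was also limited by the smaller number of THP-1 peaks in the stretch. The M2 peak of strongest signal in the whole territory was among those with none, a choice made after the values were seen. It lies at chr8:128909652-128912834, 0.171 Mb past the start of the MYC stretch, with 257 fragments and a 7.76-fold enrichment, 16.6 kb from the nearest THP-1 peak. The widest M2 peak of PVT1, chr8:128901800-128905060 (3261 bp, 7.14-fold), lies beside it. Joined with neighbours within 12500 bp, these form a cluster of 4 M2 peaks, chr8:128887356-128912834, that covered 7.98 kb and held no THP-1 peak.

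The end of PVT1 away from MYC held the stretch's most enriched M2 peak and most of its THP-1 peaks. The M2 peak chr8:129060269-129063088 was 9.75-fold enriched with 181 fragments, and 87.5% of it was covered by 2 THP-1 peaks. The THP-1 peak of highest fold was chr8:129054742-129055393 (5.84-fold). M2 macrophages had 53 fragments there and THP-1 cells 39, a signal ratio of 1.04 (interval 0.676 to 1.62). THP-1 cells had 2 peaks of their own in PVT1, at chr8:128823256-128824688 (5.01-fold) and chr8:129053732-129054579 (4.83-fold). An M2 peak stood 0.154 kb from the second of these. The cluster around it, chr8:129053732-129063098, held 3.33 kb of M2 and 3.98 kb of THP-1 covered sequence.

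**Figure D3:**
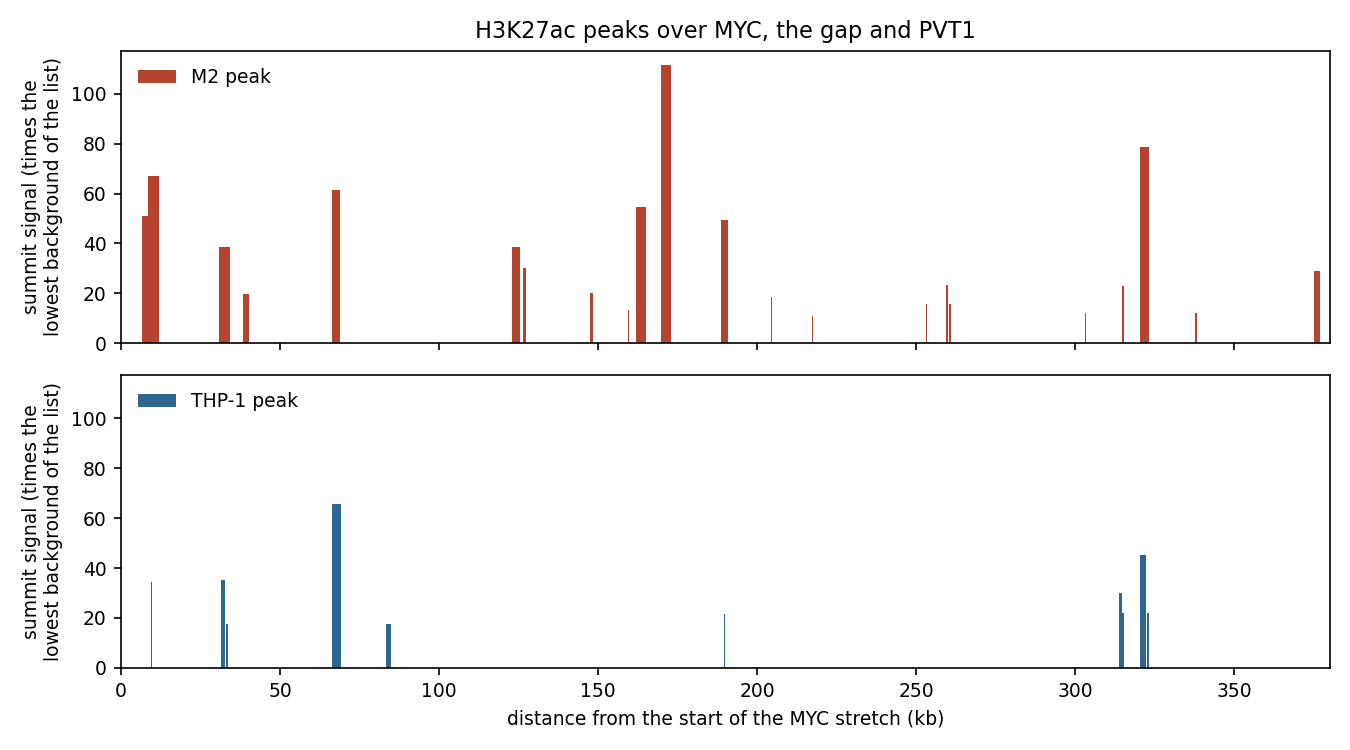
H3K27ac peaks by distance from the start of the MYC stretch (kb) over MYC, the interval and PVT1, M2 above and THP-1 below. Bar width is the peak and height its summit signal as a multiple of the lowest background of the list; the M2 peak near 171 kb (signal 111.7) has no THP-1 peak under it, while peaks of both lists stand near 67 kb (61.3 in M2, 65.7 in THP-1).

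The upstream desert was sparsely acetylated, more so in THP-1 cells. It held 30 M2 and 9 THP-1 peaks, a ratio of 3.33 (interval 1.54 to 7.98), which was 2.00 (0.853 to 5.05) in lists of equal length. M2 peaks covered 2.09% of its length and THP-1 peaks 0.553%. Its covered ratio of 3.77 was 6.94 at a −log10 q of at least 10. Its leading M2 peak, chr8:128233858-128236504, was 30.9-fold enriched, the highest fold of the territory and rank 35 of the 56420 M2 peaks. It held 109 fragments over a background of 1.03 times the lowest, 0.505 Mb before the MYC stretch, and the nearest THP-1 peak was 14.5 kb away. A second M2 peak with no counterpart, chr8:128578884-128580382 (16.4-fold, 72 fragments), stood 108 kb from any THP-1 peak and 0.160 Mb before the MYC stretch.

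Sharing in the upstream desert was lower than in the list for M2 peaks and near it for THP-1 peaks. Of the 30 M2 peaks 7 met one of THP-1, or 23.3%, beside 37.0% over the M2 list, a value that the wide interval (9.93 to 42.3) holds. With 9 THP-1 peaks in the stretch, few of the 30 M2 peaks could meet one, so the lower M2 share largely restates the peak numbers. Of the 9 THP-1 peaks 7 met one of M2, or 77.8%, beside 75.3% over the THP-1 list. Signal at the 7 pairs was lower in M2 at 6 and higher at 1, while by raw fragments it was lower at 4 and higher at 3. The pair highest in M2 was the widest M2 peak of the stretch, chr8:127632039-127635081, with 148 fragments against 26 at the THP-1 peak chr8:127632823-127633254 (ratio 4.37, interval 2.86 to 6.90). At the widest THP-1 peak, chr8:128217650-128219310, M2 macrophages had 28 fragments and THP-1 cells 68 (ratio 0.316, interval 0.196 to 0.497). The THP-1 peak of highest fold was chr8:128003176-128004030 (6.76-fold), with 46 M2 and 47 THP-1 fragments at the pair.

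The downstream desert was acetylated mostly in M2 macrophages. It held 58 M2 and 10 THP-1 peaks, a ratio of 5.80 (interval 2.94 to 12.7). In lists of equal length they were 31 and 10, a ratio of 3.10 (1.48 to 7.09). They covered 75.7 kb, or 5.91% of the stretch, in M2 macrophages and 7.55 kb, or 0.590%, in THP-1 cells. In the whole lists M2 peaks covered at least 5 times as much as THP-1 peaks in 9.9% of windows of the same 1280 kb length, counted only where both lists had peaks. Of the 58 M2 peaks 7 met one of THP-1, or 12.1% (interval 4.99 to 23.3), beside 37.0% over the M2 list. With 10 THP-1 peaks in the stretch, few of the 58 M2 peaks could meet one. The low share thus largely restates the peak numbers and is no separate result. All 10 THP-1 peaks met one of M2, with an interval of 69.2% to 100% that holds the 75.3% of the THP-1 list.

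M2 acetylation was densest at the near end of the desert, just past PVT1. A cluster of 12 M2 peaks at chr8:129178778-129218300 covered 15.9 kb, and 2 THP-1 peaks covered 1.99 kb of it. It is the largest M2 cluster of the territory by covered sequence and ranked 226 of 25897 in the list. Inside it lie the widest M2 peak of the desert, chr8:129184563-129190679 (6117 bp, 17.0-fold, 140 fragments), and the one of highest fold, chr8:129197000-129199346 (22.0-fold, 89 fragments). The THP-1 list had its widest peak of the desert within the same 6117 bp, at chr8:129188496-129190106, with 28 fragments.

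A second cluster followed at chr8:129237780-129265350, where 4 M2 peaks covered 10.9 kb and 1.57 kb was covered by 2 THP-1 peaks. It holds the THP-1 peak of highest fold of the desert, chr8:129262611-129263548 (7.48-fold). The M2 peak that overlaps it had 145 fragments and the THP-1 peak 45 (ratio 2.47, interval 1.76 to 3.53), but the M2 summit stands 758 bp away and outside the THP-1 peak. Its first M2 peak, chr8:129237780-129240030 (18.8-fold, 88 fragments), overlapped no THP-1 peak. Beyond the cluster stands the M2 peak of highest −log10 q of the territory, 131, at chr8:129308680-129310491 (17.1-fold, 182 fragments), 45.1 kb from any THP-1 peak. The q-value is the p-value adjusted over all candidate peaks by the authors' peak caller.

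The longest runs without a peak also lay in this desert. That of M2 was 294 kb long and began 1.25 Mb past the start of the MYC stretch, and 1 THP-1 peak reached 0.505 kb into it. That of THP-1 was 482 kb long and began 0.524 Mb past the same point, and 22 M2 peaks with 28.7 kb of covered sequence lay in it. At the 4 sites of the desert where a single peak of each list met, M2 signal was the higher at 3, each with an interval above 1, and lower at 1, whose interval holds 1. Only 2 of the 4 pairs have summits within 200 bp of each other, and their ratios are 0.937 (interval 0.480 to 1.85) and 1.92 (1.27 to 2.94). The largest ratio of the territory was among the 4, 6.18 (interval 3.67 to 11.1), at the M2 peak chr8:129160140-129163574 with 129 fragments and the THP-1 peak chr8:129161978-129162462 with 16, whose summits lie 565 bp apart.

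The far blood enhancer stretch ran the other way. It held 34 M2 and 44 THP-1 peaks, a ratio of 0.773 (interval 0.479 to 1.24), whose interval holds 1. That depends on the lists: at equal list length the numbers were 16 and 44, a ratio of 0.364 (0.192 to 0.657), and with peaks within 1000 bp merged they were 24 and 23. Covered sequence was 45.1 kb in M2 macrophages, or 7.52% of the stretch, and 67.7 kb in THP-1 cells, or 11.3%, which is 1.5 times as much. In the whole lists THP-1 peaks covered more than M2 peaks in 10.9% of windows of the same 0.6 Mb length with peaks of both lists. M2 peaks were shared more often than in the list, 25 of 34 or 73.5% (interval 55.6 to 87.1), beside 37.0%. The stretch holds more THP-1 than M2 peaks, unlike the whole lists, so the M2 share depends in part on the peak numbers. Of the 44 THP-1 peaks 27 were shared, or 61.4% (45.5 to 75.6), an interval that holds the 75.3% of the list. Shared sequence came to 30.1 kb, which is 66.6% of the M2 and 44.4% of the THP-1 covered length.

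Most of the strongest THP-1 peaks of the territory lay in this stretch, as did most of its THP-1 peaks. Among each list's 10 territory peaks of highest −log10 q, 2 of the M2 peaks and 9 of the THP-1 peaks lie there. The stretch holds 34 of the 144 M2 and 44 of the 73 THP-1 peaks of the territory. Among the decile of highest −log10 q in each whole list were 2 of the 34 M2 peaks (5.88%) and 10 of the 44 THP-1 peaks (22.7%) of the stretch. By definition the decile holds 10% of each list. In the downstream desert the same counts were 8 of 58 M2 peaks (13.8%) and 0 of 10 THP-1 peaks, neither far from 10% at such small numbers.

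In THP-1 cells 27 of the peaks fell into 3 dense regions between chr8:130540276 and chr8:130695210, 1.80 to 1.96 Mb past the start of the MYC stretch. The first, chr8:130540276-130569672, had 4 M2 peaks (11.8 kb) and 8 THP-1 peaks (20.5 kb). The second, chr8:130592601-130607589, had 2 M2 peaks (2.18 kb) and 6 THP-1 peaks (10.5 kb). The third, chr8:130647977-130695210, had 8 M2 peaks (7.84 kb) and 13 THP-1 peaks (23.5 kb), and ranked 19 of 17061 THP-1 clusters by covered sequence.

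These 3 regions are the THP-1 clusters with the most covered sequence in the territory, put together after their values were seen. Higher THP-1 cover inside them, and lower in the rest of the stretch, is partly set by that choice. Together the 3 regions held 12% of the M2 and 58.5% of the THP-1 covered sequence of the territory in 91.6 kb. In M2 macrophages 21.8 kb of them was covered and in THP-1 cells 54.4 kb, 2.49 times as much. The rest of the far stretch held 23.3 kb of M2 and 13.3 kb of THP-1 covered sequence, 1.76 times as much in M2, against 2.19 times over the whole lists.

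The widest peaks of both lists in the territory share a site in the first region. The M2 peak, chr8:130558308-130565598, was 7291 bp long (10.3-fold, 86 fragments) and lay wholly inside the THP-1 peak. The THP-1 peak, chr8:130556300-130568462, was 12163 bp long, rank 3 of 31444 in width, with 181 fragments and a 4.95-fold enrichment over a background 20.3 times the lowest. The summits differ, at 1824.9 kb (M2) and 1819.6 kb (THP-1) past the start of the MYC stretch. The THP-1 peak also overlapped a further M2 peak, so these are not a pair and their fragments are not compared. The M2 cluster at this site, chr8:130547382-130567311, held 11.8 kb of M2 and 17.5 kb of THP-1 covered sequence.

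The third region held the most enriched THP-1 peaks. The THP-1 peak of highest fold of the territory, chr8:130678898-130684499 (5602 bp, 16.7-fold), ranked 22 in fold and 31 in −log10 q. The M2 peak chr8:130678921-130681235 had 64 fragments and this THP-1 peak 143 (ratio 0.343, interval 0.252 to 0.464), at summits 340 bp apart. At its neighbour chr8:130674483-130678676 (13.5-fold), M2 macrophages had 103 fragments and THP-1 cells 159 (ratio 0.497, interval 0.384 to 0.641), at summits 680 bp apart. The lowest ratio of the territory stood at the end of the third region. There the M2 peak chr8:130691294-130691688 was 395 bp wide with 29 fragments, and the THP-1 peak chr8:130690037-130694207 was 4171 bp wide with 150 (ratio 0.148, interval 0.0960 to 0.222), and the summits lie 49 bp apart. The most enriched THP-1 peaks of the stretch with no M2 counterpart were less enriched, chr8:130832034-130832568 (5.92-fold), chr8:130600724-130601434 (4.96-fold) and chr8:130553330-130554333 (4.32-fold).

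**Figure D4:**
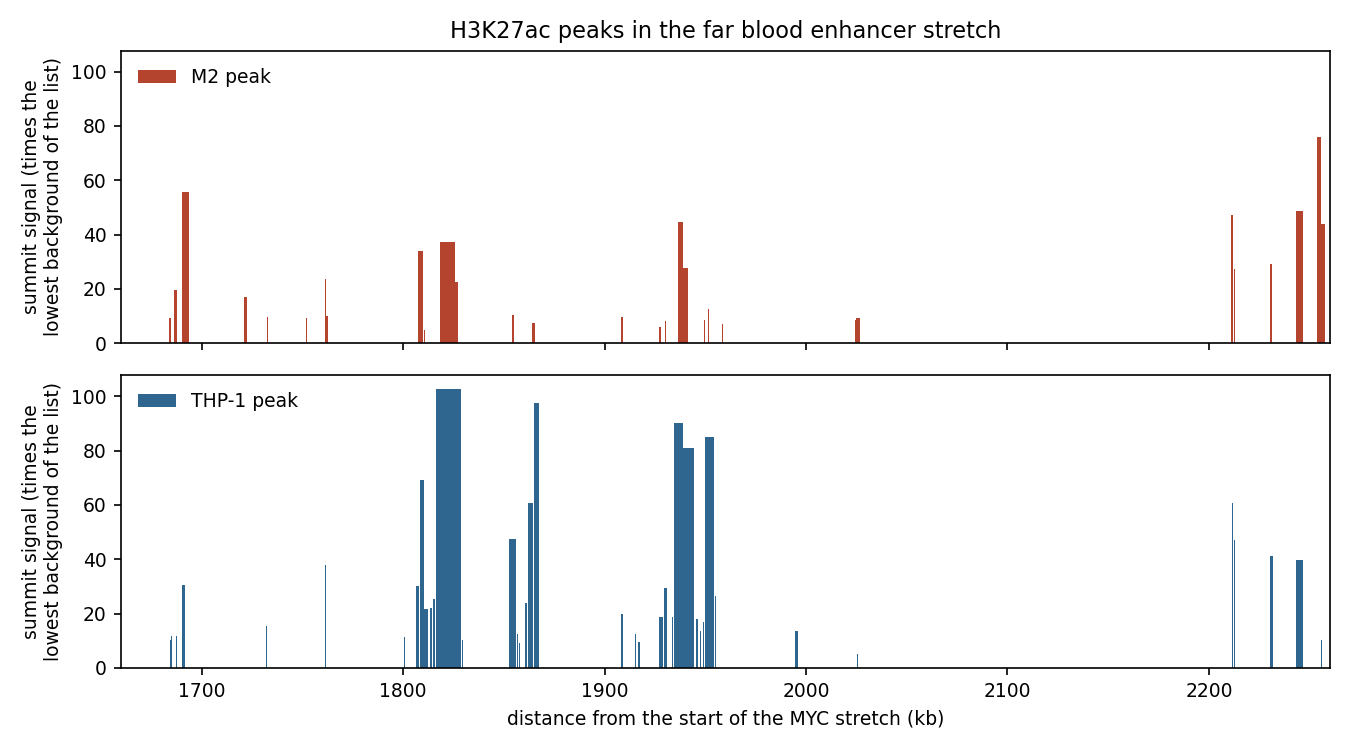
H3K27ac peaks of the far blood enhancer stretch by distance from the start of the MYC stretch (kb), M2 above and THP-1 below. The THP-1 peaks chr8:130472473-130472974 and chr8:130832034-130832568, whose signal could not be solved, are not drawn. Bar width is the peak and height its summit signal as a multiple of the lowest background of the list; from 1.80 to 1.96 Mb the M2 bars reach 44.8 and the THP-1 bars 102.5, while M2 bars are the taller near 1691 and 2255 kb.

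M2 macrophages had strong sites at both ends of the far stretch. The M2 peak of highest fold, chr8:130430084-130433791 (18.1-fold, 128 fragments), covers 2 THP-1 peaks at the near end. At the far end a cluster of 9 M2 peaks at chr8:130970250-131029470, which passes the bound at 131 Mb, covered 14.1 kb, against 10.1 kb in THP-1 cells. The matching THP-1 cluster, chr8:130970202-131021905, held 11.9 kb of M2 and 10.1 kb of THP-1 covered sequence. The M2 peak of strongest signal of the stretch, chr8:130993526-130995629 (12.4-fold, 175 fragments), overlapped no THP-1 peak and ended 0.2 kb from the nearest. The pair of the stretch with the highest M2 to THP-1 ratio lies there, chr8:130995852-130997567, with 101 M2 and 18 THP-1 fragments (ratio 4.30, interval 2.59 to 7.55). Its summits lie 921 bp apart, with the M2 summit outside the THP-1 peak.

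Over the 32 sites of the territory where a single M2 peak met a single THP-1 peak, signal split by stretch. The median ratio of M2 to THP-1 signal was 0.826 (quartiles 0.493 and 1.68), against 0.934 (0.645 and 1.37) over 15246 such pairs of the whole lists. M2 signal was at least 2 times that of THP-1 at 5 pairs, or 15.6%, beside 11.1% of all pairs. THP-1 signal was at least 2 times that of M2 at 9, or 28.1%, beside 13.8%. By raw fragments the same counts were 9 for M2 and 7 for THP-1, the opposite balance. Raw fragments were higher in M2 over the whole lists too (median ratio 1.22), and whole-list shares by that measure were not counted. In the far stretch the median signal ratio over 17 pairs was 0.582. Of the 9 pairs with THP-1 signal ahead by at least 2 times, 8 lie there. All 8 belong to the 3 dense regions, where every pair was between 0.148 and 0.497. The other 9 pairs of the stretch had a median of 0.895. The regions were chosen for their THP-1 cover, so this split is partly set by the choice. In the downstream desert the median over 4 pairs was 2.19.

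**Figure D5:**
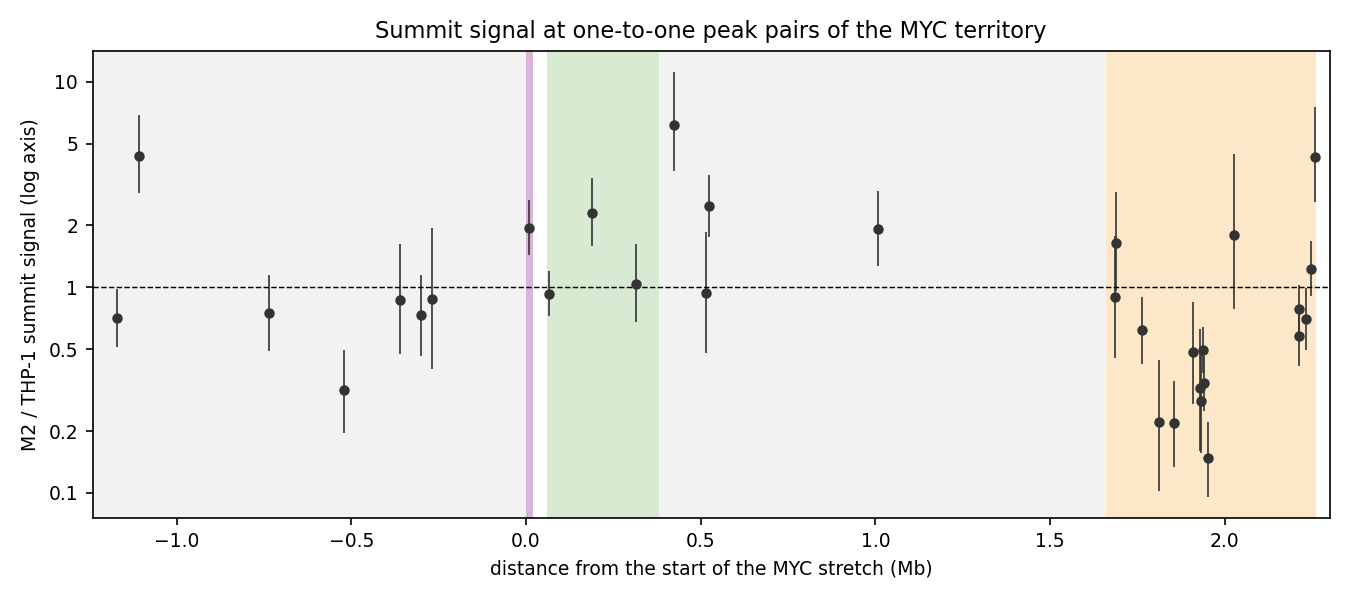
Ratio of M2 to THP-1 summit signal (log axis) at the 32 pairs of the territory by distance from the start of the MYC stretch (Mb); points are ratios and bars exact 95% intervals that cover counting error only. Purple marks MYC, green PVT1, grey the deserts and orange the far stretch. Intervals lie below 1 at 11 of the 17 far pairs. They lie above 1 at the MYC pair (1.94) and 3 of the 4 pairs of the downstream desert. Shares of such pairs over the whole lists were not counted.

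The intervals leave out 1 at 20 of these pairs, 7 with the M2 signal and 13 with the THP-1 signal higher. This balance depends on the scaling, since by raw fragments 10 pairs lie above 1 and 8 below. Shares of such pairs over the whole lists were not counted, so neither balance is read as particular to the territory. Raw fragment numbers, not set against the lowest background of each list, give a median of 1.08 over the 32 pairs, on the other side of 1. By the same measure the median was 0.759 in the far stretch, 2.86 in the downstream desert and 1.22 over the whole lists. In the 3 dense regions, chosen for their THP-1 cover, all 8 pairs were lower in M2 by raw fragments too, between 0.193 and 0.648. The intervals of 7 lie below 1. Of these 8 pairs 4 have summits within 200 bp, and their median signal ratio was 0.274.

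The local background at summits also differed between the lists. The library it was taken from is not named in the sources used here. As a multiple of the list's lowest, its median was 1.74 at M2 and 4.32 at THP-1 peaks of the territory, 1.9 at M2 and 4.84 at THP-1 peaks of the far stretch, and 2.38 and 5.04 at M2 and THP-1 peaks of the whole lists. It was higher in THP-1 at 24 of the 32 pairs. At equal fragments a peak over more background has a lower fold enrichment and −log10 q; the part of background in the number and width of peaks was not tested. The number of copies of chromosome 8 in each cell type was not measured here, and its part was not tested.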

How the data were processed

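Fixed chromatin was sonicated and immunoprecipitated for H3K27ac, per the labels' protocols. The submitters' processing notes name Bowtie2, MACS2 2.1.0 and hg19; settings, and the use of input as control, are not given in the sources used here. Per cell type, the authors deposited 1 peak list, with each peak's fold enrichment (a ratio to local background), −log10 p-value and −log10 q-value. These were used to describe and rank peaks within a list.

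A peak belonged to every stretch it overlapped; sharing required 1 bp. Peaks within 12500 bp of each other formed clusters. Fragments and background at summits were solved from fold enrichment and p-value by the usual MACS2 relations, with the pileup scaled by 0.842 (M2) and 1 (THP-1). Whole fragments, within 0.01, came out for 99.99% of peaks in M2 and 100% in THP-1, against 4.93% and 4.80% at a typical other scale, and a single solution for 98.0% and 97.6%. Over all peaks a median of 39 fragments lay over M2 and 40 over THP-1 summits. The lowest backgrounds, in units of the scaled pileup, were 1.94 in M2 and 1.77 in THP-1. The overlap step and the solving step were tested on simulated data. Pairs are 1 M2 and 1 THP-1 peak that overlap only each other.

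Named regions are every peak of the MYC stretch, the peak of highest fold enrichment and the widest peak per list and stretch, the 5 unshared peaks of highest fold and the 5 clusters of most covered sequence per list; others are named as extremes of the pairs or signals, after their values were seen. The territory, its bounds and these rules were chosen with earlier results of these data known. The Y chromosome was left out. Python 3.11.15, numpy 2.4.6, scipy 1.17.1, pandas 2.3.3 and matplotlib 3.10.9 were used. Alternatives were a stricter −log10 q, equal list lengths, assignment by summit, merged peaks, other overlap and stitching distances, other pairs and raw fragments, and a signal minimum added after the data were seen.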

Additional observations from a re-analysis of the deposited data

How the results depend on the processing

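No paired analysis was possible because each cell type has 1 library. Of 78 values under other settings 1 changed sides and 14 moved, ratios of peaks and shares outside the interval of the reported value and other values by over 1.5 times. The other 63 did not. Among the 63 is every value under assignment by summit. These equal the reported values, since each peak fell into the same stretch either way, and say nothing on stability. A −log10 q minimum of 10 left 84 M2 and 38 THP-1 peaks, with a covered ratio of the upstream desert of 6.94. THP-1 clusters then numbered 20 against 31, and clusters of at least 10 peaks numbered 0 in M2 and 0 in THP-1 against 1 each. The THP-1 peak at MYC (−log10 q of 9.64) then falls out, so the MYC ratio has no value. In lists of equal length there were 80 M2 peaks, a peak ratio of 1.10 and a shared THP-1 share of 47.9%. Merging within 1000 bp left 46 THP-1 peaks. With an overlap of at least 50% of a peak, 22.9% of M2 and 57.5% of THP-1 peaks were shared. Keeping signals of at least 10 times the lowest background, a setting chosen after seeing the data, gave a shared THP-1 share of 56.2%. Whole-list shares were not counted under these settings, and the 37.0% of M2 and 75.3% of THP-1 peaks hold for the main setting only. Stitching within 5000 bp left 0 M2 clusters of at least 10 peaks. Raw fragments gave a median pair ratio of 1.08 in place of 0.826. Covered ratios stayed between 7.77 and 11.2 in the downstream desert, 0.492 and 0.667 in the far stretch and 2.57 and 2.94 in PVT1 under every setting tried. Over the whole lists peaks held at least 9 M2 and 8 THP-1 fragments at the summit; what lies below the peak caller's threshold is not in these lists.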
